A study of Homo sapiens with 12 samples.

Results

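The histone genes measured here numbered 74 of the 18665 genes that had a probe of their own on the array. They were chosen by symbol: symbols starting with H1-, H2AC, H2BC, H3C or H4C, together with H2AZ1, H2AZ2, H2AX, H2AJ, H3-3A, H3-3B and MACROH2A1. Earlier results of these data were known when the choice was made. Of these, 64 were replication-dependent cluster genes (H1-1 to H1-6 and every H2AC, H2BC, H3C and H4C symbol) and 10 were variants (H1-7, H1-8, H1-10 and the genes listed by name). H3C6 appeared only on a probe that the annotation assigns to H3C11 as well, so it is not counted. Tests covered the 30 genes with a probe detected on at least 3 of the 12 arrays, 22 of them cluster genes and 8 variants. Detection means a detection p under 0.01, the scanner software's comparison of a probe with control probes. Of the 44 genes not tested, 40 were detected on no array and 4 on 1 or 2 arrays.

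The cells were SW48, an established human colorectal cancer line with microsatellite instability, and total RNA was read on Illumina HumanWG-6 v3 arrays in 4 groups of 3 arrays. The groups were untreated control cells, cells given 5'-Aza-cytidine (azacytidine, an inhibitor of DNA methyltransferases) at 1 µM over 5 days, cells given Trichostatin A (TSA, an inhibitor of histone deacetylases) at 0.5 µM over 2 days, and cells given azacytidine and then TSA at these doses and times, called the combined treatment. Every group came from the same line, cultured in the same medium, and treatment times differed between groups, so time in culture and drug cannot be told apart. The labels do not state whether replicates were separate cultures, so the spread behind the p-values may be technical.

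Histones package DNA: H2A, H2B, H3 and H4 form the nucleosome core, and H1 binds the linker DNA between nucleosomes. Cluster genes are transcribed mainly in S phase, and their messages typically end in a stem-loop bound by SLBP in place of a poly(A) tail. Most variant genes instead give polyadenylated messages through the cell cycle. A subset of cluster genes also gives polyadenylated transcripts, described in differentiated tissues. The labelling kit named in the labels starts from an oligo(dT) primer, so the levels below stand mainly for polyadenylated transcripts, and how much of each gene's RNA they cover was not tested.

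Promoter windows are shown for 5 genes that set out the range of responses described below: H4C8 (core histone H4) and H2BC12 (core histone H2B), which rose after azacytidine with or without TSA; H1-2 (linker histone), which rose after azacytidine and further after the combined treatment; H2AC20 (core histone H2A), which was called higher after the combined treatment and after neither drug alone; and the linker variant H1-10, which fell. Each window holds 300 bases around the transcription start, most of them upstream, from RefSeq on GRCh38.p14, written 5′ to 3′ on the gene's strand. Capitals mark 3 promoter motifs, read on either strand: the TATA box as TATAAA, the CCAAT box by its letters, and the octamer as ATTTGCAT. A motif on the other strand stands in the text as its reverse complement. The first capitals in H2BC12 hold overlapping TATA matches on both strands.
H4C8, chr6:26285485-26285784 (minus strand): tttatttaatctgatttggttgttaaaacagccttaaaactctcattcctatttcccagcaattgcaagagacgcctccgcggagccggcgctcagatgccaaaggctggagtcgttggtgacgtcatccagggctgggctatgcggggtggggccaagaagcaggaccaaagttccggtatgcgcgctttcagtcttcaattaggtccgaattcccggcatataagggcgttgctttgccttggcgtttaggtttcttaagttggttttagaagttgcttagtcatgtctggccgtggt
H2BC12, chr6:27146809-27147108 (minus strand): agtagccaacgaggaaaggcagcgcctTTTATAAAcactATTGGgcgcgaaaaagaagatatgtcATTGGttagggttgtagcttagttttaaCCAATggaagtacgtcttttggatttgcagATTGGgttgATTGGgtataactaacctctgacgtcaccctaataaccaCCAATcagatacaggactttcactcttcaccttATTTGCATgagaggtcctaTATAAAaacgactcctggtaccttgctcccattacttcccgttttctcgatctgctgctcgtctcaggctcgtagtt
H1-2, chr6:26056421-26056720 (minus strand): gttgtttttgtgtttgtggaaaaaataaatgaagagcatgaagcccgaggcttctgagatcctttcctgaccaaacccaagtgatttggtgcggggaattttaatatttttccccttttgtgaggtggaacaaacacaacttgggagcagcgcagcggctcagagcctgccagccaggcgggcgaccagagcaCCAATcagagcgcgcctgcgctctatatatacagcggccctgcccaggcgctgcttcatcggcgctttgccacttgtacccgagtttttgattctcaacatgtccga
H2AC20, chr1:149886668-149886967 (plus strand): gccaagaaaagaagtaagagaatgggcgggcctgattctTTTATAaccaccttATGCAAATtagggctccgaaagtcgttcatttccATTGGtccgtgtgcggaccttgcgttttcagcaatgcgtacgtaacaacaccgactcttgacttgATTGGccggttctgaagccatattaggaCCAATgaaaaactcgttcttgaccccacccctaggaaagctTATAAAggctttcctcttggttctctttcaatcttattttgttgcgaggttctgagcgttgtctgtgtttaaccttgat
H1-10, chr3:129316237-129316536 (minus strand): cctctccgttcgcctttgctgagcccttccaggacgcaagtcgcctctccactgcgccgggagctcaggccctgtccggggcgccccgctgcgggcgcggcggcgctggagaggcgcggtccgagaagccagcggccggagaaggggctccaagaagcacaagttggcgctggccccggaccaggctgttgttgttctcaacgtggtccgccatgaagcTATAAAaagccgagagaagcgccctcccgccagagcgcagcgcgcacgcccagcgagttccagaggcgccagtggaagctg
The H4C8 window holds none of the 3 motifs, and that of H1-2 holds the CCAAT motif alone.

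The promoter table held 69 of the 74 genes and 28 of the 30 tested, all but H4C3 and H2AC12. Among the 59 cluster genes in it, 66.1% of windows held the TATA motif, 84.7% held the CCAAT motif and 42.4% held the octamer, against 11.95%, 35.7% and 1.80% of all 27305 windows. The octamer stood in 14 of 18 H2B windows and 10 of 14 H2A windows, in 1 of 9 H3 windows and in 0 of the 12 H4 and 0 of the 6 H1 windows. Many H2A and H2B genes lie head to head with close starts and share much of their windows, so 1 octamer can be counted for both. Cluster windows held a median of 11 CG dinucleotides, the sequence that DNA methyltransferases modify, against 26 in the 10 variants and 14 in all windows. The printed windows held 16 (H4C8), 11 (H2BC12), 15 (H1-2), 13 (H2AC20) and 32 (H1-10). Across the 28 tested genes with a window, the CG count and the log2 change after azacytidine had a Pearson r of -0.447 and a Spearman rho of -0.521. These are a description across genes that share the same arrays and are not independent. The same correlation over all genes was not computed, so whether the trend is particular to histone genes was not tested. Several of the 28, among them H4C8, H2BC4, H2BC6, H2BC9, H3C8 and H2AC8, were detected on no control array. They entered the test through treated arrays, which favours a positive change among them.

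Levels below are log2 intensities after background correction and quantile normalization, and a change is a difference of group means in log2 units, with its standard error from limma and n = 3 arrays per group. A gene was called higher or lower at a limma adjusted p under 0.05. Between probes of different genes, levels were not compared. Where every array of a group was below detection, the level there is only an upper bound, and a change is also given as "at least N-fold". For that bound each dim array was given the lowest level that counted as detected on it, or the probe's own level if higher. The mean of these was subtracted from the mean of the bright arrays. That lowest level was 6.65 to 6.73 on control arrays, 6.23 to 6.48 after azacytidine, 6.39 to 6.66 after TSA and 6.14 to 6.49 after both. A level that counted as detected after a treatment may thus not have counted in control. Where no rise or fall remained, no bound is given. Of the 30 tested genes, 10 were detected on no control array, 9 of them cluster genes. They entered the test through the treated arrays, so counts over the 30 genes are descriptions. Counts over the 12 cluster genes detected on all control arrays are given beside those over the 30.

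After azacytidine alone, 14 of the 30 histone genes rose and 5 fell, while 32.3% of all 9484 genes tested were called higher and 31.1% lower. Among genes measured in both groups, the H2B gene H2BC12 rose 2.12-fold and the linker H1-2 2.06-fold. The H4 gene H4C8, the H2B gene H2BC4 and the H3 gene H3C8 were below detection in control and were at least 1.98-fold, 1.84-fold and 1.06-fold higher. The linker variant H1-10, the H2A gene H2AC25 and the H3.3 gene H3-3B fell most. Among cluster genes, 12 of 22 rose and 3 fell, with a median change of 0.40, and among variants 2 of 8 rose and 2 fell, with a median of 0.16, beside a median of 0.0095 over all genes. Over the 12 cluster genes detected in control, 4 rose and 2 fell, and the median was 0.055. The arrays hold RNA of whole cultures, so more RNA per cell and a larger share of cells making it cannot be told apart.

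TSA alone gave 0 limma calls among the 30 histone genes, where 0.127% of all genes were called higher and 0.0211% lower. At an unadjusted p under 0.05, 8 histone genes passed, 7 higher and 1 lower, in a comparison where 7.60% of all genes passed that limit. The smallest adjusted p among the 8 was 0.0799, for H3C8, which was below detection in both groups. H1-4, H2AC12 and H2AC13 were detected on no control array and on every TSA array, so they entered the test partly through the TSA arrays. Over the 12 cluster genes detected in control, 4 passed: H2AC14, H4C3 and H4C12 higher and H2BC5 lower. For 29 of the 30 genes the 95% interval of the TSA change lay within a 2-fold change in either direction. The exception, H2AC14, had an interval of 0.12 to 1.31 in log2 units. Among the 29 were H2AC8, H2AZ2, H2BC4, H2BC6, H2BC9, H3C8 and H4C8. These were below detection on every control and TSA array, so their intervals do not bound a change. The intervals of H1-4, H2AC12 and H2AC13 rest on control levels that are only upper bounds.

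After the combined treatment, 20 histone genes rose and 3 fell against control, where 32.7% of all genes were called higher and 36.2% lower. The linker H1-2 rose 4.18-fold, while H3C8, H4C8 and H2AC8, below detection in control, were at least 2.29-fold, 2.08-fold and 1.17-fold higher, and H1-10, H2AC25 and H3-3B were the genes that fell. Among cluster genes 17 of 22 rose and 1 fell, with a median change of 0.91, against 3 of 8 variants higher and 2 lower, with a median of -0.06. Of the 12 cluster genes detected in control, 8 rose and 1 fell, with a median of 0.61, beside a median of -0.038 over all genes. Quantile normalization sets all arrays to 1 distribution. With arrays scaled to a common median instead, the median over all genes after the combined treatment was -0.32, and 1528 genes were called higher and 4261 lower, in place of 3106 and 3432. Under that scaling 17 histone genes were higher and 8 lower than control, and the direction of H2BC5 and H3-3A turned. Differences given below are therefore relative to the bulk of the genes on the array. Under the same scaling the median over all genes after azacytidine was -0.14, with 1695 genes higher and 2903 lower in place of 3063 and 2954, and 12 histone genes were higher and 7 lower.

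**Figure D1:**
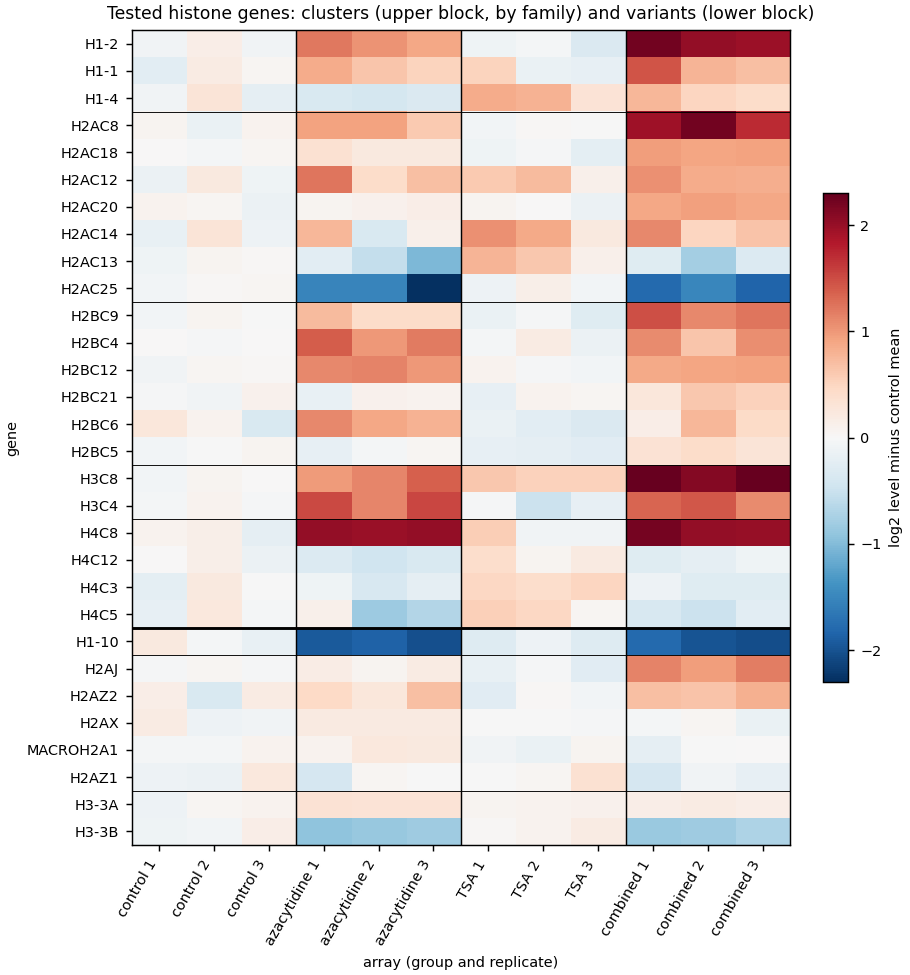
Log2 level of each of the 30 tested histone genes on each of the 12 arrays, minus that gene's control mean (colour scale in log2 units, red higher, blue lower); cluster genes stand above the thick line and variants below it, each ordered by family. The red blocks of H3C8, H4C8, H1-2 and H2AC8 in the combined columns and the blue rows of H1-10, H2AC25 and H3-3B in the azacytidine and combined columns are the main features, and most of the TSA columns are pale.

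Of the 4 tested linker histones, H1-1 and H1-2 rose after azacytidine, H1-10 fell and H1-4 was not called. H1-2, a somatic H1 of the chromosome 6 cluster, gave log2 levels of 11.06, 11.30 and 11.06 on the control arrays, 12.35, 12.17 and 12.02 after azacytidine, 11.04, 11.10 and 10.80 after TSA and 13.35, 13.15 and 13.10 after the combined treatment. The azacytidine and combined arrays lay above control and apart from each other, and the TSA arrays overlapped control. Its change was 1.04 ± 0.11 after azacytidine (adjusted p = 4.68e-06) and 2.06 ± 0.11 after the combined treatment (adjusted p = 4.8e-09). H1-1, another H1 of that cluster, read 7.28, 7.72 and 7.58 in control, 8.38, 8.17 and 8.04 after azacytidine, 8.03, 7.37 and 7.33 after TSA and 8.96, 8.31 and 8.23 after both drugs. It rose by 0.67 ± 0.21 after azacytidine and by 0.97 ± 0.21 after the combined treatment, with an adjusted p of 0.0153 and 0.00131. The azacytidine call for H1-1 was lost without control replicate 1 or azacytidine replicate 1.

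H1-4, also a somatic cluster H1, behaved differently: it was below detection on every control and azacytidine array and detected on every array that had TSA. Its levels were 6.26, 6.64 and 6.15 in control, 6.01, 5.95 and 6.02 after azacytidine, 7.20, 7.15 and 6.66 after TSA and 7.11, 6.85 and 6.77 after the combined treatment. The TSA arrays all lay above control, by 0.65 ± 0.15 (at least 1.24-fold), but the adjusted p was 0.215. The combined arrays were at least 1.17-fold above control (adjusted p = 0.00624). Against azacytidine the combined arrays were higher by 0.92 ± 0.15 (adjusted p = 0.000608), at least 1.46-fold. The remaining cluster linkers, H1-3, H1-5 and the testis-specific H1-6, were detected on no array.

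The linker variant H1-10, which is made outside S phase, showed the largest fall of all 30 genes. Its levels were 12.25, 11.99 and 11.85 in control, 10.09, 10.17 and 10.02 after azacytidine, 11.73, 11.92 and 11.74 after TSA and 10.24, 10.05 and 9.99 after both. The azacytidine and combined arrays overlapped each other and lay well below the rest. The change was -1.94 ± 0.11 in each of these groups (adjusted p = 6.72e-09 after azacytidine and 5.12e-09 after the combined treatment), a 0.261-fold level for both. Chip 1 alone gave -2.03 and chip 2 alone -1.76 for azacytidine, and -1.88 and -1.83 for the combined treatment. The germline linkers H1-7 and H1-8 were detected on no array.

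Of the 15 H2A cluster genes, 7 were tested. H2AC8 was detected only on the 3 combined arrays, where it read 6.90, 7.17 and 6.66. Control read 5.01, 4.79 and 5.03, azacytidine 5.87, 5.88 and 5.55 and TSA 4.89, 4.97 and 4.93, all below detection. The combined level was at least 1.17-fold higher than control, with a fitted change of 1.96 ± 0.13 (adjusted p = 2.65e-08). Azacytidine arrays lay above control in the fit, by 0.82 ± 0.13, but both groups were below detection, so no fold is given.

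H2AC20 and H2AC18 lie in the smaller histone cluster on chromosome 1 and were detected on all 12 arrays. H2AC20 read 12.25, 12.21 and 12.02 in control, 12.23, 12.25 and 12.32 after azacytidine, 12.22, 12.17 and 12.02 after TSA and 13.05, 13.10 and 13.05 after the combined treatment. Azacytidine and TSA arrays overlapped control, and all combined arrays lay above them. The combined change was 0.91 ± 0.08 (adjusted p = 5.85e-07), against 0.11 ± 0.08 after azacytidine (adjusted p = 0.27) and -0.02 ± 0.08 after TSA (adjusted p = 0.965). H2AC18 read 13.13, 13.07 and 13.16 in control, 13.47, 13.34 and 13.35 after azacytidine, 13.02, 13.10 and 12.89 after TSA and 14.08, 14.03 and 14.04 after both. It rose by 0.27 ± 0.08 after azacytidine (adjusted p = 0.00791), a call that median scaling removed, and by 0.93 ± 0.08 after the combined treatment (adjusted p = 2.29e-07).

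H2AC25, the H2A gene of a further small cluster on chromosome 1, went the other way. It read 7.92, 8.0 and 8.02 in control, 6.46, 6.46 and 5.70 after azacytidine, 7.86, 8.12 and 7.93 after TSA and 6.20, 6.49 and 6.15 after the combined treatment. It was detected on 2 azacytidine arrays and 1 combined array. The fall was -1.77 ± 0.17 after azacytidine (adjusted p = 1.78e-06) and -1.70 ± 0.17 after the combined treatment (adjusted p = 2.08e-06). H2AC13 read 6.48, 6.63 and 6.60 in control, 6.34, 6.02 and 5.53 after azacytidine, 7.34, 7.18 and 6.69 after TSA and 6.29, 5.78 and 6.26 after both, and it was detected on the TSA arrays and 1 azacytidine array. Its combined arrays were lower than TSA by 0.96 on the log2 scale (at least 1.65-fold, adjusted p = 0.00113). The call against control after azacytidine (-0.61 ± 0.21, adjusted p = 0.0214) was made between levels near detection and was lost on each chip alone and without control replicate 2 or 3 or azacytidine replicate 3.

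H2AC12 was at least 1.56-fold higher in the combined group (fitted change 0.92 ± 0.19), and H2AC14 was higher there by 0.75 ± 0.28. H2AC12 read 6.28, 6.64 and 6.32 in control, all below detection, and 7.64, 6.84 and 7.10 after azacytidine, an increase of at least 1.42-fold (adjusted p = 0.0036). It was detected on the TSA arrays too, at 7.02, 7.13 and 6.54, and read 7.47, 7.27 and 7.24 after both. H2AC14 read 6.76, 7.22 and 6.80 in control, 7.69, 6.57 and 7.05 after azacytidine, 7.97, 7.79 and 7.14 after TSA and 8.04, 7.42 and 7.57 after both. Its call in the combined group (adjusted p = 0.0272) was lost without control replicate 1, control replicate 3 or combined replicate 1.

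All 6 tested H2B cluster genes, of 18 on the array, rose after the combined treatment, and 4 of them rose after azacytidine, where 32.7% and 32.3% of all genes were called higher. H2BC4, H2BC6 and H2BC9 were detected on no control array and entered the test through treated arrays. H2BC12 read 12.75, 12.87 and 12.86 in control, 13.93, 13.97 and 13.82 after azacytidine, 12.91, 12.80 and 12.76 after TSA and 13.70, 13.73 and 13.75 after the combined treatment. Control and TSA overlapped, the other groups lay about 1 log2 unit higher, and the combined arrays were all slightly below the azacytidine arrays. The change was 1.08 ± 0.07 after azacytidine (adjusted p = 5.52e-08) and 0.90 ± 0.07 after the combined treatment (adjusted p = 2.52e-07), and the combined minus azacytidine difference was -0.18 (95% interval -0.34 to -0.02, adjusted p = 0.076).

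H2BC4 was below detection in control (6.39, 6.34 and 6.39) and TSA (6.32, 6.56 and 6.23). It read 7.76, 7.36 and 7.57 after azacytidine and 7.46, 7.01 and 7.43 after both drugs, at least 1.84-fold and 1.53-fold above control. H2BC6 was also below detection in control (6.58, 6.39 and 5.97) and TSA (6.15, 6.07 and 5.98) and read 7.41, 7.20 and 7.10 after azacytidine, at least 1.47-fold higher (adjusted p = 0.000334). Its combined arrays, at 6.47, 7.08 and 6.75, overlapped control, and the change of 0.45 ± 0.17 (adjusted p = 0.0282) was 0.95 on chip 2 alone and -0.022 on chip 1 alone. The call was lost without control replicate 3, combined replicate 2 or combined replicate 3.

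H2BC9 rose in steps between the groups. It was below detection in control (6.24, 6.37 and 6.29) and TSA (6.14, 6.27 and 6.01), read 7.03, 6.73 and 6.73 after azacytidine and 7.79, 7.40 and 7.53 after both. The bounds were at least 1.10-fold (adjusted p = 0.00138) and at least 1.85-fold (adjusted p = 6.37e-07) above control. H2BC5 and H2BC21 were detected on all 12 arrays and were not called after azacytidine. H2BC5 read 10.13, 10.19 and 10.26 in control, 10.00, 10.14 and 10.24 after azacytidine, 10.00, 9.99 and 9.94 after TSA and 10.52, 10.62 and 10.49 after both, a combined change of 0.35 ± 0.08 (adjusted p = 0.00161) that was -0.051 under median scaling. H2BC21, on chromosome 1, read 8.64, 8.60 and 8.78 in control, 8.51, 8.77 and 8.74 after azacytidine, 8.48, 8.75 and 8.71 after TSA and 8.93, 9.30 and 9.20 after both. Azacytidine and TSA overlapped control, and the combined change was 0.47 ± 0.11 (adjusted p = 0.00277), a call that median scaling removed.

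H2A and H2B cluster genes often lie head to head with a shared stretch between their starts. Among the measured genes 12 head-to-head pairs had starts within 1000 bases. All joined an H2A and an H2B gene except H3C7 and H2BC9, with starts 979 bases apart. In 1 pair, H2AC20 and H2BC21 with starts 236 bases apart, both genes were tested. Both overlapped control after azacytidine and after TSA, and both were higher after the combined treatment, by 0.91 and 0.47. In 6 other pairs 1 gene was tested. H2BC4 (partner H2AC6), H2AC8 (partner H2BC8), H2BC9 (partner H3C7) and H2AC14 (partner H2BC14) were called higher after the combined treatment. H2AC25 (partner H2BC26) was called lower and H2AC13 (partner H2BC13) was not called, where 32.7% of all genes were higher and 36.2% lower. Of the partners, H2AC6, H2BC8, H2BC26 and H2BC13 were detected on no array, H3C7 on 2 combined arrays and H2BC14 on 1 azacytidine array.

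Of the 11 H3 cluster genes 2 were tested, and both rose after azacytidine and after the combined treatment. H3C8 was below detection in control (5.54, 5.66 and 5.61) and TSA (6.22, 6.14 and 6.14), read 6.59, 6.73 and 6.98 after azacytidine and 8.03, 7.72 and 7.90 after the combined treatment. The 4 groups did not overlap. The combined treatment gave at least 2.29-fold over control (fitted change 2.28 ± 0.11, adjusted p = 8.16e-10), and azacytidine at least 1.06-fold (fitted change 1.16 ± 0.11, adjusted p = 8.47e-07). H3C4 was detected on 1 control array and 2 TSA arrays and on all azacytidine and combined arrays. It read 6.63, 6.76 and 6.65 in control, 8.21, 7.80 and 8.22 after azacytidine, 6.65, 6.19 and 6.49 after TSA and 8.02, 8.12 and 7.77 after both, a change of 1.39 ± 0.14 after azacytidine (adjusted p = 2.15e-06) and 1.29 ± 0.14 after both (adjusted p = 3.62e-06). The combined minus azacytidine difference for H3C4 was -0.11 (95% interval -0.41 to 0.20).

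The 4 tested H4 genes, of 14 measured, encode the same protein, and their probes split. H4C8 was below detection in control (5.75, 5.80 and 5.47) and TSA (6.24, 5.59 and 5.59), and read 7.69, 7.65 and 7.69 after azacytidine and 7.87, 7.70 and 7.67 after both. The azacytidine and combined arrays overlapped each other and lay at least 1.98-fold and 2.08-fold above control (fitted changes 2.00 ± 0.15 and 2.07 ± 0.15, adjusted p = 1.47e-07 and 8.18e-08). Chip 1 alone gave 1.91 and chip 2 alone 2.20 for azacytidine.

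The other 3 tested H4 genes, like H4C8, had a positive TSA change without a call, and all were called lower after both drugs than after TSA. Against control, only H4C12 after azacytidine was called. The limma adjusted p for H4C3 was 0.0975 after azacytidine and 0.0821 after both drugs, and for H4C5 0.0781 and 0.146. For H4C12 after both drugs it was 0.109. The azacytidine arrays of H4C3 and H4C5 overlapped control. H4C3 read 14.16, 14.62 and 14.38 in control, 14.29, 14.02 and 14.17 after azacytidine, 14.86, 14.79 and 14.87 after TSA and 14.27, 14.10 and 14.10 after both. All TSA arrays lay above all other arrays, by 0.46 ± 0.11 against control, with an adjusted p of 0.233, and the combined arrays were lower than TSA by 0.69 (adjusted p = 0.000113). H4C12 read 7.32, 7.45 and 7.17 in control, 7.0, 6.86 and 6.96 after azacytidine, 7.71, 7.37 and 7.53 after TSA and 7.04, 7.11 and 7.22 after both. It fell by 0.37 after azacytidine (adjusted p = 0.006), a call that neither chip alone made, and was lower after both drugs than after TSA by 0.41 (adjusted p = 0.00285). H4C5 read 7.48, 7.92 and 7.62 in control, 7.80, 6.85 and 6.99 after azacytidine, 8.23, 8.15 and 7.72 after TSA and 7.30, 7.18 and 7.44 after both, and was lower after both than after TSA by 0.73 (adjusted p = 0.00918).

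**Figure D2:**
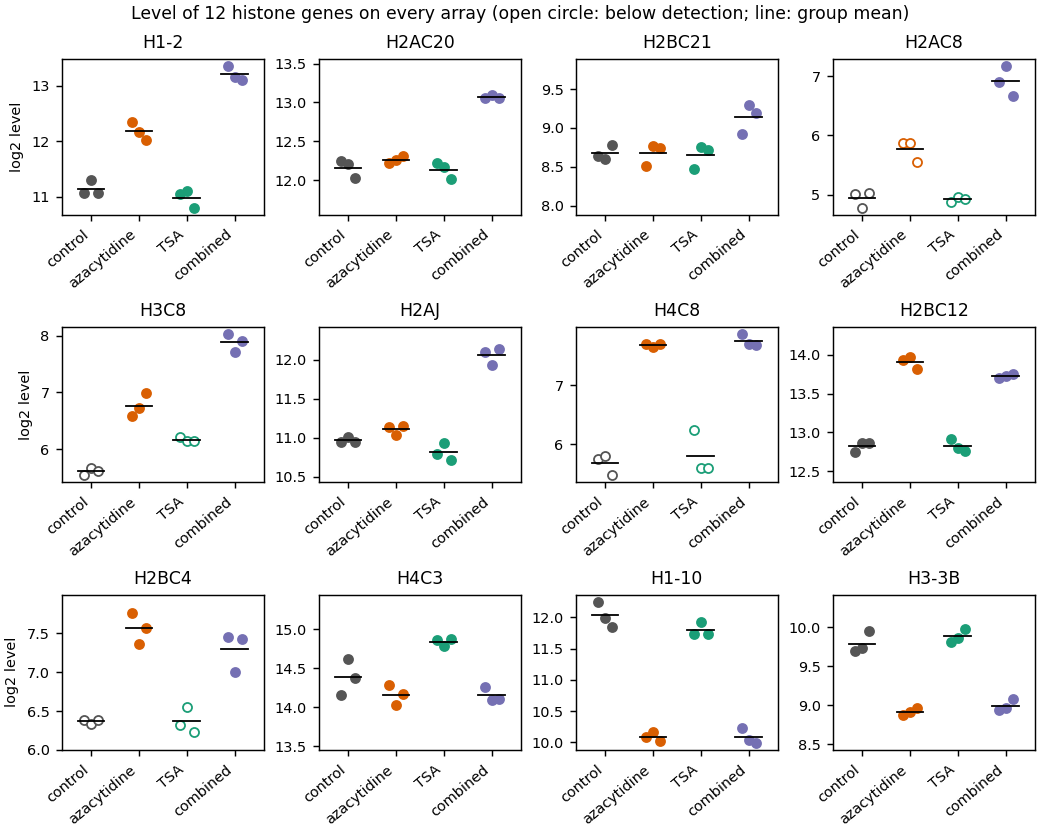
Log2 level of 12 histone genes on every array, by group (filled circles detected, open circles below detection, lines group means, n = 3 arrays per group); each panel has its own axis, so levels are not compared between panels. H1-2 and H3C8 rise from azacytidine to the combined treatment, H2AC20 and H2BC21 are high in the combined group alone, H4C8, H2BC12 and H2BC4 are high in both groups with azacytidine, and H1-10 and H3-3B are low in those groups.

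The 2 genes for H3.3, the replacement H3 placed outside S phase, moved apart. H3-3B read 9.69, 9.73 and 9.95 in control, 8.87, 8.92 and 8.97 after azacytidine, 9.81, 9.87 and 9.97 after TSA and 8.94, 8.97 and 9.07 after the combined treatment. It fell by 0.87 after azacytidine (SE 0.08, adjusted p = 1.55e-06) and by 0.80 after both (adjusted p = 2.93e-06), with overlapping arrays between these groups. H3-3A read 14.86, 15.02 and 15.05 in control, 15.31, 15.29 and 15.29 after azacytidine, 15.04, 15.06 and 15.08 after TSA and 15.12, 15.17 and 15.13 after both. Its rise of 0.32 ± 0.07 after azacytidine (adjusted p = 0.00144) was -0.051 under median scaling, and its combined call (0.16 ± 0.07, adjusted p = 0.0498) was lost under 19 alternatives. A dimmer H3-3A probe gave no call in any comparison.

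Among the H2A variants, H2AJ, which is encoded outside the clusters and known to accumulate in senescent human fibroblasts, changed most. It read 10.94, 11.01 and 10.94 in control, 11.14, 11.03 and 11.15 after azacytidine, 10.79, 10.94 and 10.71 after TSA and 12.10, 11.93 and 12.14 after the combined treatment. The combined arrays lay about 1 log2 unit above the rest, a change of 1.09 ± 0.08 (adjusted p = 1.34e-07), against 0.14 ± 0.08 after azacytidine (adjusted p = 0.151). H2AZ2, which encodes an H2A.Z protein, was below detection in control (6.30, 5.78 and 6.33) and TSA (5.87, 6.16 and 6.08) and was detected after azacytidine (6.59, 6.39 and 6.82) and after both (6.83, 6.79 and 6.95). The combined level was at least 1.13-fold above control (adjusted p = 0.00077). After azacytidine no fold bound could be given for H2AZ2. Its levels of 6.59 and 6.39 lay below 6.65, the lowest level that counted as detected on any control array. The azacytidine call for H2AZ2 (0.47 ± 0.15, adjusted p = 0.0146) was lost on each chip alone and without control replicate 2 or azacytidine replicate 3.

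H2AZ1, the other H2A.Z gene, read 13.34, 13.32 and 13.70 in control, 13.07, 13.50 and 13.44 after azacytidine, 13.44, 13.50 and 13.79 after TSA and 13.06, 13.38 and 13.26 after both. It was not called against control in any group, and its lower level after both drugs than after TSA (-0.34 ± 0.14, adjusted p = 0.0489) was lost without control replicate 1 or 2, azacytidine replicate 3, TSA replicate 2 or 3, or combined replicate 1 or 3. H2AX, the variant phosphorylated at DNA breaks, read 11.73, 11.42 and 11.45 in control, 11.73, 11.73 and 11.75 after azacytidine, 11.52, 11.52 and 11.50 after TSA and 11.48, 11.58 and 11.38 after both. Its only call was combined against azacytidine (-0.26 ± 0.09, adjusted p = 0.0362), which was lost without any 1 azacytidine array, combined replicate 1 or combined replicate 3.

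Several kept probes were available for 4 tested genes. In a fit over all kept probes, each of the 4 genes had probes that did not give the same calls. The dimmer H2AX probe was lower after the combined treatment by 0.46 (SE 0.09, adjusted p = 0.000409), where the brightest gave -0.06 ± 0.09. MACROH2A1 encodes macroH2A1, an H2A with an added macro domain, in splice forms that have separate transcripts. Probe 3, the dimmest and annotated to a transcript of its own, was lower after azacytidine by 0.72 (SE 0.13, adjusted p = 0.000255) and after both drugs by 0.81 (adjusted p = 7.77e-05). The brightest probe, annotated to the other transcript, read 13.46, 13.47 and 13.59 in control, 13.59, 13.74 and 13.74 after azacytidine, 13.42, 13.36 and 13.57 after TSA and 13.30, 13.50 and 13.51 after both. It gave changes of 0.18 ± 0.09 after azacytidine and -0.07 ± 0.09 after both. Probe 2, annotated to the same transcript as the brightest, was -0.09 after azacytidine and lower by 0.43 after both (adjusted p = 0.0342). Both H2AC18 probes rose after the combined treatment, by 0.93 and 0.84. After azacytidine the brightest H2AC18 probe was called (0.27, adjusted p = 0.00912) and the dimmer was not (0.26, adjusted p = 0.0704). For H3-3A after azacytidine the brightest probe was called (0.32, adjusted p = 0.00178) and the dimmer was not (0.13, adjusted p = 0.208).

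**Figure D3:**
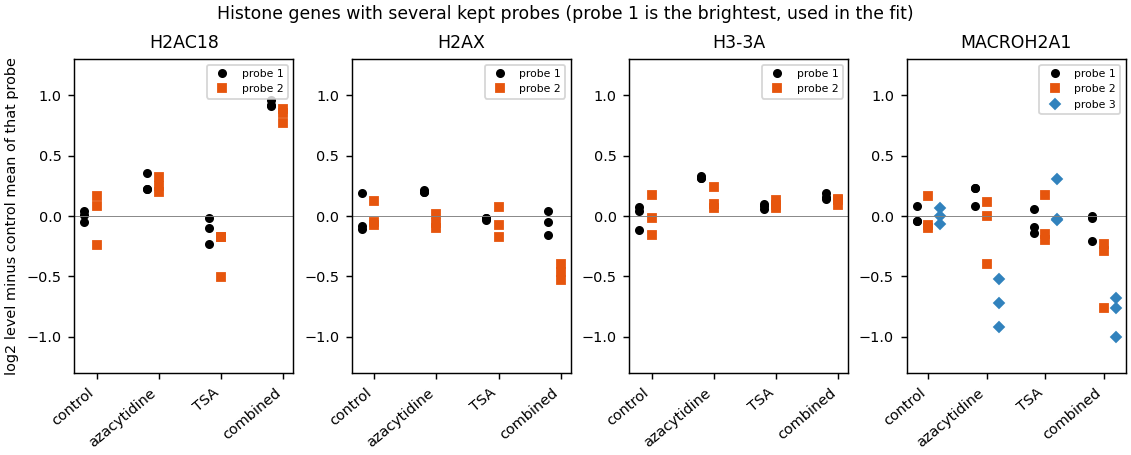
Log2 level of every kept probe of the 4 histone genes with several, minus that probe's control mean, on each array by group (probe 1 is the brightest and stands for the gene elsewhere). The probes of H2AC18 and H3-3A lie close together, whereas MACROH2A1 probe 3 lies below its control level in the azacytidine and combined groups and H2AX probe 2 in the combined group.

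To see whether the azacytidine change was the same with and without TSA, the combined minus TSA change was set against the azacytidine minus control change for every gene, and their difference was tested as the interaction in the same fit. These comparisons share no array. Combined against TSA, 16 histone genes were higher and 8 lower (33.4% and 36.4% of all genes), and the interaction was positive for 9 and negative for 1 (11.6% and 11.1% of all genes). Over the 12 cluster genes detected in control, 7 were higher and 4 lower against TSA, and the interaction was positive for 5 and negative for 1. The 9 were H2AJ, H1-2, H2AC8, H2BC9, H2AC20, H2AC18, H2BC5, H3C8 and H2BC21, and the exception was H4C3. H2AC8 was below detection outside the combined group and entered the test through it alone. H2BC9 and H3C8 were below detection in control and TSA. The interactions of H2AC8, H2BC9 and H3C8 are therefore fitted values and not established. For H1-2 the azacytidine change was 1.04 without TSA and 2.22 with it (interaction 1.18 ± 0.16, adjusted p = 0.000265, and 1.11 and 1.29 on chips 1 and 2). For H2AJ it was 0.14 and 1.25 (interaction 1.10 ± 0.12, adjusted p = 3.96e-05, and 1.07 and 1.17 on the chips). For H2AC20 it was 0.11 and 0.93 (interaction 0.82 ± 0.12, adjusted p = 0.000307, and 0.86 and 0.79 on the chips), a call that was lost under median scaling. H4C8, H2BC12, H3C4, H1-10, H2AC25 and H3-3B had interactions between -0.18 and 0.23 that were not called, with 95% intervals of -0.53 to 0.40 for H4C8 and -0.41 to 0.05 for H2BC12. Across the 30 genes the azacytidine change without and with TSA had a Pearson r of 0.881, against 0.889 across all genes, both as descriptions across genes.

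The same interaction can be read from the TSA side. Against azacytidine alone, the combined treatment raised 10 histone genes and lowered 3 (15.7% and 19.4% of all genes), among them 9 and 1 of the 22 cluster genes. Over the 12 cluster genes detected in control, 5 were higher. H2AC8 and H1-4, below detection on every azacytidine array, were each at least 1.46-fold higher. The others higher were H3C8 by 1.12, H1-2 by 1.02, H2AJ by 0.95, H2AC20 by 0.80, H2BC9 by 0.74, H2AC18 by 0.67, H2BC21 by 0.47 and H2BC5 by 0.42. Those lower were H2BC6, H2AX and MACROH2A1, each a call lost under at least 10 alternatives. Leaving out any azacytidine array, combined replicate 1 or combined replicate 3 removed the H2BC6 and H2AX calls, any TSA array or control replicate 2 also that of H2BC6, and azacytidine replicate 2 or 3 or combined replicate 1 or 2 that of MACROH2A1. The Pearson r between the TSA change without and with azacytidine was 0.163 over the 30 genes and -0.0725 over all genes.

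**Figure D4:**
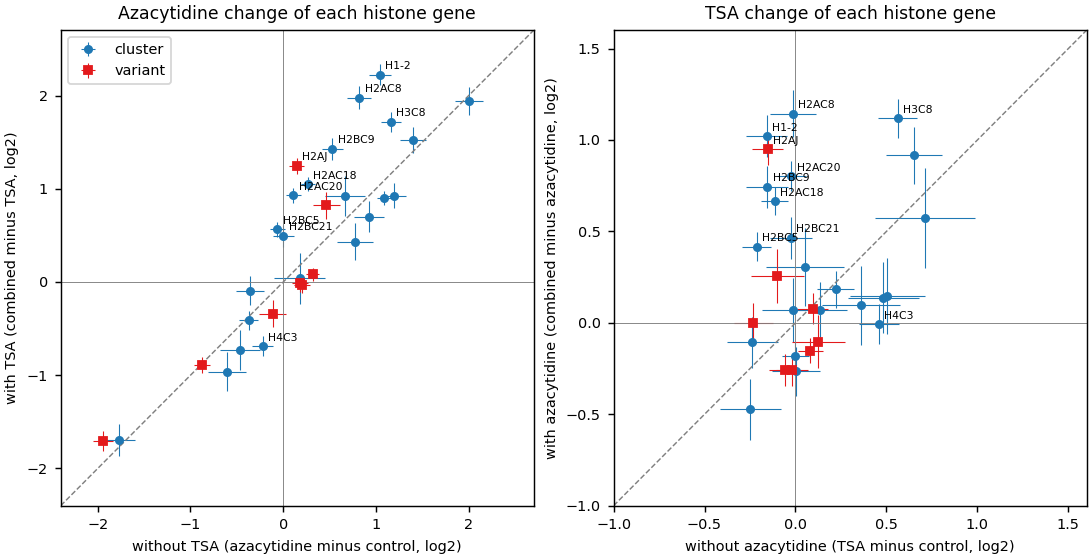
Change of each tested histone gene (points, bars ± 1 SE, log2 units, circles cluster genes, squares variants): on the left the azacytidine change without TSA (horizontal) and with TSA (vertical), on the right the TSA change without and with azacytidine; the dashed line marks equal change, and genes with a called interaction are named. H1-2, H2AC8, H2AJ, H2BC9, H2AC18 and H2AC20 lie above the line in both panels, and H4C3 lies below it.

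Genes that make, process and deposit histones were read from lists drawn up by function. Of 15 tested genes for histone transcription and 3′ end processing, 4 rose and 3 fell after azacytidine (32.3% and 31.1% of all genes), and 4 rose and 6 fell after the combined treatment (32.7% and 36.2%), with medians of 0.028 and -0.16 beside 0.0095 and -0.038 over all genes. ERI1, an exonuclease that trims histone messages, rose by 0.99 after azacytidine and by 0.54 after both drugs, and CSTF2, a cleavage factor, by 0.89 and 0.54. SLBP, the stem-loop binding protein, was at -0.13 after azacytidine (adjusted p = 0.267) and at -0.24 after both (adjusted p = 0.0494). Of 25 tested chaperones and deposition factors, 7 rose and 10 fell after azacytidine (32.3% and 31.1% of all genes), and 4 rose and 16 fell after the combined treatment (32.7% and 36.2% of all genes), with medians of -0.18 and -0.42. In the combined group ASF1B (H3-H4 chaperone) fell by 1.04, NAP1L1 (H2A-H2B chaperone) by 0.94, NASP (H3-H4 and H1 chaperone) by 0.93 and CHAF1A (a CAF-1 subunit) by 0.89.

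Of 21 tested S-phase genes, 4 rose and 5 fell after azacytidine (32.3% and 31.1% of all genes) and 2 rose and 15 fell after the combined treatment (32.7% and 36.2%), with medians of -0.12 and -0.38. Among the genes that fell in the combined group were RRM2, a ribonucleotide reductase subunit (-1.33), the replication licensing factor CDT1 (-1.23) and cyclin A2, CCNA2 (-0.68). Combined against azacytidine, 11 were called lower (19.4% of all genes), and the interaction was called negative for 11 (11.1% of all genes). SLBP stands on this list and on that for 3′ end processing. TSA alone made no call in the 3 lists, in a comparison with 14 calls over all genes. How the share of cells in S phase differed between the groups was not tested.

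The arrays were alike in quality: between 11742 and 13647 probes were detected on each, and arrays of a group correlated at 0.991 to 0.996. The 2 chips of 6 arrays each held all 4 groups, unevenly. Chip 1 held only replicate 1 of azacytidine and of the combined treatment, and chip 2 only replicate 3 of control and of TSA. Values on 1 chip therefore often rest on a single array of a group. Every called histone gene kept its direction on both chips, except H2BC6 for the combined treatment on chip 1, and every call was made again with chip as a block. The calls came from these same arrays, so this is a description and not a separate test. Of 9 colorectal epithelial markers, EPCAM, CDH1, KRT8, KRT18, KRT19 and CDX2 were detected on all 12 arrays and KRT20 and VIL1 on none. After azacytidine KRT19, CDH1 and 2 others of the 6 tested markers were lower and CDX2 was higher, and after the combined treatment 3 were lower and CDX2 was higher. Of 10 markers of fibroblasts, leukocytes and endothelium, 0 were detected on all arrays and 6, including PTPRC, CD3E and DCN, on none. Their summed level, in log2, was 8.64 to 8.68 in control, 9.41 to 9.51 after azacytidine, 8.59 to 8.73 after TSA and 10.5 to 10.7 after both, moved by VWF and CD14, which were detected on all azacytidine and combined arrays and called higher in both groups. Their part in the histone changes was not tested.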

How the data were processed

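RNA from SW48 cells was measured on 12 single-colour bead arrays, 3 in each of 4 groups, placed by the treatment and replicate number in the labels. The authors deposited 1 linear intensity per probe and array, without normalization between arrays as the values show. Beside each intensity the authors deposited a p-value for detection, per the file headers. A further deposited table holds log2 values as the authors processed them; the submitters' processing notes name GenomeStudio and lumi 2.6.0, and the transform and genome build are not given in the sources used here. Those log2 values served as an alternative.

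Of 48801 probes with an ID, 27577 had 1 gene symbol in the platform annotation, 13 had several and 21211 are not named here; the RefSeq gene table matched 27540 by gene ID and changed 0 symbols. Probe sequences were not used here, so binding of a probe to a near-identical histone gene was not tested, and single cluster genes are uncertain to that extent. Intensities were background-corrected (normal-exponential model with detection p-values, offset 16), quantile-normalized and taken to log2 with limma 3.58.1 in R 4.3.3. A probe was kept if at least 3 arrays had a detection p under 0.01, and a gene was represented by its brightest kept probe, which gave 9484 genes. A single fit of 4 group means over 12 arrays (lmFit, eBayes) gave 5 contrasts and the interaction, two-sided, with Benjamini-Hochberg adjustment over all genes of each and a threshold of 0.05. Array number and probe signal over background limit the precision. The fit was tested on simulated data with known changes.

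Same-numbered arrays deviated together for combined against azacytidine (correlations of 0.417, 0.197 and 0.204). Each of these pairs was on the same chip, so pairing by replicate number and by chip cannot be told apart there. With the replicate block that comparison again gave 13 calls. All tested variants were to be named, any tested cluster gene could be, and up to 3 called genes per related list and comparison with the largest change. The histone genes, their classes and the lists (histone transcription and 3′ end processing, chaperones, S-phase genes, epithelial markers, markers of other cells) were chosen with earlier results of these data known. Alternatives changed the normalization, background correction, detection filter, probe choice, chip, replicate block and arrays in the fit.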

Additional observations from a re-analysis of the deposited data

Results flagged for a closer look

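The interaction test of the fit called a difference between the azacytidine change with TSA and without it for 10 histone genes. The difference, in log2 units, was 1.18 for H1-2 (change of 1.04 without TSA and 2.22 with it), 1.16 for H2AC8 (0.82 and 1.98), 1.10 for H2AJ (0.14 and 1.25) and 0.90 for H2BC9 (0.53 and 1.43). It was 0.82 for H2AC20 (0.11 and 0.93), 0.78 for H2AC18 (0.27 and 1.05), 0.63 for H2BC5 (-0.06 and 0.56), 0.56 for H3C8 (1.16 and 1.72) and 0.49 for H2BC21 (0.00 and 0.49). H4C3 had a negative difference of -0.47 (-0.22 and -0.69). The adjusted p ranged from 3.96e-05 for H2AJ to 0.0493 for H4C3, with 0.0453 for H2BC21. The calls of H4C3 and H2BC21 were lost under 16 and 14 alternatives, most of them leaving out 1 array, and median scaling left calls for 3 of the 10 genes, H1-2, H2AC8 and H2AJ. In all 10 genes the difference had the same sign on chip 1 alone and chip 2 alone. H2AC8 was below detection on every array outside the combined group, and H2BC9 and H3C8 on every control and TSA array, so their changes are fitted values. H2AC8 entered the test only through the combined arrays, where it is high, so its call does not establish a difference. For H2BC9 and H3C8 the levels without azacytidine are only upper bounds, so a difference is not established there either. With 3 arrays a group, no test for a single outlying array was made.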

How the results depend on the processing

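Histone genes made 89 calls over the 6 comparisons, and 55 of them were made with the same sign under every alternative run. Median scaling gave 1 call after TSA in place of 0 (H1-4, 0.83, adjusted p = 0.0386) and 3 interaction calls in place of 10; chip 1 alone and chip 2 alone gave 5 interaction calls each, with 6 arrays in the fit. Under median scaling H3-3A was -0.051 after azacytidine, -0.28 after the combined treatment and -0.37 for combined against TSA (adjusted p = 0.0318), and H2BC5 was -0.051 after the combined treatment. H2BC6 was -0.022 after the combined treatment on chip 1 alone. The cause was not tested. Leaving out each array in turn gave 17 to 20 calls after azacytidine, 0 to 1 after TSA (H3C8 without azacytidine replicate 3), 21 to 24 after the combined treatment, 23 to 25 for combined against TSA, 10 to 13 for combined against azacytidine and 8 to 10 for the interaction. With the replicate block there were 21, 0, 23, 24, 13 and 9 calls in place of 19, 0, 23, 24, 13 and 10. Outside combined against azacytidine, not every same-numbered pair correlated above 0.1. The split of combined against TSA was 14 higher and 11 lower under median scaling, in place of 16 and 8, and 1328 and 4944 over all genes, in place of 3168 and 3449. Combined against azacytidine gave 8 higher and 1 lower, in place of 10 and 3, and 598 and 1290 over all genes, in place of 1485 and 1836. The interaction over all genes gave 321 and 641, in place of 1096 and 1053. After TSA, all genes gave 18 higher and 0 lower under median scaling, in place of 12 and 2.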

Other observations

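Some histone probes outside the tests also gave signal. The probe that the annotation assigns to both H3C11 and H3C6 read log2 levels of 6.73, 6.66 and 6.76 in control, 7.03, 7.13 and 7.06 after azacytidine, 6.37, 6.83 and 6.88 after TSA and 6.46, 6.41 and 6.51 after the combined treatment. It was detected on every azacytidine and combined array, on control replicates 1 and 3 and on TSA replicates 2 and 3. Its azacytidine arrays lay above and its combined arrays below all control arrays, and its signal cannot be assigned to either gene. For that reason it was not tested.

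H2AC1, a testis-type H2A, was detected on 2 combined arrays, where the group read 6.54, 6.61 and 6.30, and was below detection on all control arrays (5.03, 5.05 and 4.76). H3C7, an H3 gene whose head-to-head neighbour H2BC9 rose, was detected on 2 combined arrays, where the group read 6.83, 6.10 and 6.73, against 5.04, 5.13 and 5.63 in control. H2AC21 was detected on 1 combined array at 6.45 and H2BC14 on 1 azacytidine array at 6.45. These 4 genes were not tested.

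Among the tested cluster genes with a promoter window, all 9 with the octamer motif were called higher after the combined treatment, with changes of 0.45 to 1.96, and of the 11 without it 7 were higher and 1 lower, with changes of -1.70 to 2.28, where 32.7% of all genes were higher and 36.2% lower. After azacytidine 6 of the 9 were higher and 5 of the 11 were higher and 3 lower, where 32.3% of all genes were higher and 31.1% lower. Several genes with the motif were below detection in control and entered the test through treated arrays, so the counts are a description. H2AC20 and H2BC21, a head-to-head pair with overlapping windows, are both among the 9. They say nothing about factors that bind the motif.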
